A study of Mus musculus with 24 samples.

Results

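The levels of 10 genes of the endoplasmic reticulum (ER) and of its stress response were followed in 3'Pool-seq libraries of mouse frontal cortex. They were chosen by name as the rows of the count table with the symbols Hspa5, Hsp90b1, Calr, Canx, Pdia3, Pdia4, Pdia6, Xbp1, Atf4 and Ddit3, and all 10 were found among the 33000 genes of the table. The 24 libraries came from 3 wild-type (WT) C57BL/6 mice and 3 mice homozygous for the GFAP-IL6 transgene, each 3 months old. In the transgenic line the promoter of Gfap drives Il6, the gene of the cytokine interleukin-6, in astrocytes, so the tissue was exposed to the cytokine from within. No agent was given to either group. Each mouse contributed 4 libraries, in which 2 ng or 1 ng of the amplified cDNA was tagmented, in a set named A and a set named B. The labels do not say what separates the sets.

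The ER folds and ships membrane and secreted proteins. When unfolded proteins build up there, the sensors IRE1 (Ern1), PERK (Eif2ak3) and ATF6 (Atf6) start the unfolded protein response. IRE1 splices the mRNA of Xbp1, PERK slows translation while favouring that of Atf4, which in turn can induce Ddit3 (CHOP), and ATF6 is cut in the Golgi to free a transcription factor that acts with XBP1 on the genes of chaperones. Hspa5 (BiP), the main chaperone of the ER lumen, is the gene most often read as a measure of this response. Splicing of Xbp1, cutting of ATF6 and translation of Atf4 are not seen in counts of 3' ends, which give only the amount of each mRNA.

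A DNA element that carries much of this response is the ER stress element (ERSE), in which CCAAT and CCACG are separated by 9 bases. It is shown here because it divides the 10 genes by a property that expression did not enter. It was searched on both strands of RefSeq promoter windows of GRCm38.p6, from 250 bases before to 50 after each gene's start, and all 10 genes had a window. The element was found in 0.119% of 32851 windows and in those of 5 of the 10 genes, each printed with 5 bases on either side, the fixed letters in capitals and read along the strand that carries the match. The coordinates are those of the element without the flanks.
Hspa5 (chr2:34772025-34772043, strand of the gene, 65 to 47 bases before the start): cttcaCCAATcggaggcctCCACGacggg
Hsp90b1 (chr10:86705638-86705656, strand of the gene, 212 to 194 bases before the start): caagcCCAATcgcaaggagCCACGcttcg
Hsp90b1 (chr10:86705533-86705551, strand opposite to the gene, 107 to 89 bases before the start): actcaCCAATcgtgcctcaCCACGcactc
Calr (chr8:84847075-84847093, strand opposite to the gene, 162 to 144 bases before the start): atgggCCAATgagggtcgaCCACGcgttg
Canx (chr11:50325800-50325818, strand of the gene, 145 to 127 bases before the start): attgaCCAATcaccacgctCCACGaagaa
Pdia6 (chr12:17266491-17266509, strand of the gene, 98 to 80 bases before the start): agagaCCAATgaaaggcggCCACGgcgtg
The Hspa5 element lies inside the span that GENCODE gives the gene, whose longest transcript starts further upstream, and the other elements lie outside the spans of their genes. The windows of Pdia3, Pdia4, Xbp1, Atf4 and Ddit3 held no ERSE with these letters. The shorter parts of the element were common, CCAAT in 37.4% of windows and in 9 of the 10 genes and CCACG in 32.8% and in 7. ERSE-II, in which ATTGG and CCACG are separated by 1 base, was found in 0.0365% of windows and in none of the 10. The core of the cAMP response element, TGACGT, was in 7.51% of windows and in those of Hspa5 and Canx, and TTGCATCA, bound by ATF4 with a C/EBP partner, was in 0.895% and in none of the 10. A match describes letters and does not show a bound site.

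Reads assigned to genes numbered 1524165 to 12256374 per library and 7852743 to 37582644 per mouse. The labels held at the targeted gene, since Il6 had 5, 3 and 0 counts in the summed libraries of the 3 WT mice and 30, 33 and 163 in those of the GFAP-IL6 mice. Gfap, the astrocyte filament gene, was higher in GFAP-IL6 by 2.44 on the log2 scale (adjusted p = 1.59e-06 by edgeR's quasi-likelihood test). WT mouse 3 stood apart from the others. It had the lowest total, and the summed level of 5 choroid plexus markers was 4064.0 CPM (read counts scaled to a common library size) in it against 82.2 to 753.3 CPM in the other 5 mice, so results that rest on this mouse are also given without it. Neuronal markers, which are not particular to cortex, were abundant in every mouse, at 5034.3 to 6085.7 CPM over 5 genes. Most of this was Snap25, at 3205.7 to 4042.7 CPM. The 5 striatal markers summed to 33.1 to 66.5 CPM in WT, highest in WT mouse 2, and to 34.0 to 43.5 CPM in GFAP-IL6.

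The 10 genes took 0.176%, 0.175% and 0.181% of the counts of the WT mice and 0.199%, 0.196% and 0.215% of those of the GFAP-IL6 mice. In CPM scaled by the trimmed mean of M-values (TMM), their summed level was 1755.7, 1765.0 and 1855.8 in WT and 1991.7, 1945.0 and 2095.9 in GFAP-IL6. Each GFAP-IL6 mouse was above each WT mouse, and the mean of the GFAP-IL6 group was 12.2% higher. The 7 genes of chaperones and disulfide isomerases alone summed to 1382.2, 1416.3 and 1473.0 CPM in WT and to 1618.9, 1525.5 and 1669.1 in GFAP-IL6, a mean 12.7% higher. The sums follow the abundant genes, and the members did not move alike. In bulk tissue, more cells of a type and more RNA per cell cannot be told apart.

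The genotype comparison was made on the 4 libraries of each mouse summed, with edgeR over 14621 genes and a call at an adjusted p under 0.05. None of the 10 members was called, where 1.80% of all genes were. None met the stricter rule for differentially expressed genes that adds an absolute log2 fold change above 1, which 1.23% of all genes met. At an unadjusted p under 0.05 there were 5 members, Hspa5, Hsp90b1, Pdia4, Pdia6 and Xbp1, all higher in GFAP-IL6, where 6.27% of all genes were higher at that level. DESeq2 called 1 member, Hspa5, where it called 1.80% of all genes. Limma-voom over the 24 libraries, with the mouse as a random block, called 4, Hspa5, Hsp90b1, Pdia6 and Xbp1, where it called 3.73%. That fit takes libraries as its units, with a within-mouse correlation shared by all genes. Its p-values draw in part on the spread between libraries of a mouse, unlike those of the summed libraries. Hspa5, Hsp90b1, Pdia6 and Xbp1 were also the ones whose groups did not overlap, with all GFAP-IL6 mice above all WT mice. This was the case for 8.41% of all genes. No member had all GFAP-IL6 mice below all WT mice, as 5.78% of all genes did. The median log2 fold change was 0.18 over the 10 members and -0.01 over all genes tested, and 7 of the 10 were positive, where 48.1% of all genes were.

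**Figure D1:**
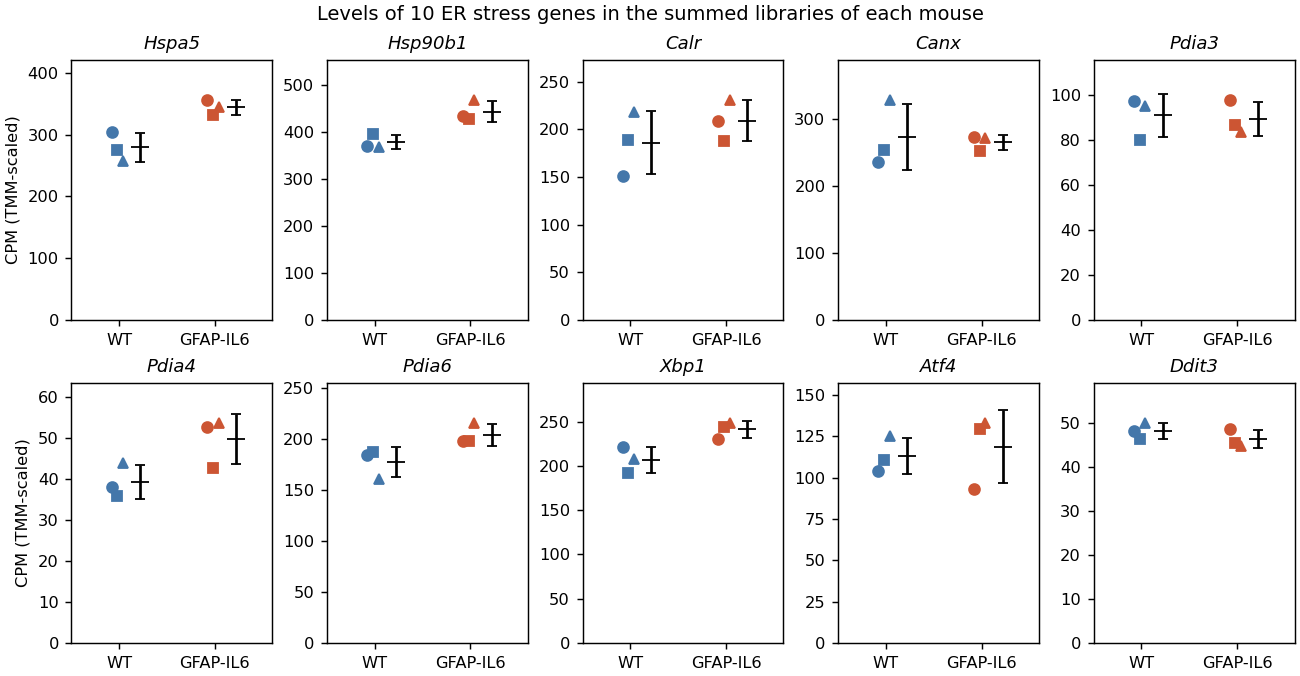
TMM-scaled CPM (y axis, from 0) of the 10 genes in the summed libraries of each mouse, WT in blue and GFAP-IL6 in red, with circles, squares and triangles for mice 1, 2 and 3 and black bars for the mean ± SD of 3 mice. The groups stand apart for Hspa5, Hsp90b1, Pdia6 and Xbp1 and overlap for the other 6 genes.

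Of the chaperones of the ER lumen, Hspa5 (ENSMUSG00000026864.11, chr2:34771970-34777547 on GRCm38) encodes BiP, which binds unfolded chains and holds the 3 sensors inactive. Its level was 304.2, 275.9 and 258.1 CPM in the WT mice and 356.6, 331.6 and 345.0 CPM in the GFAP-IL6 mice. The groups did not overlap, and the lowest GFAP-IL6 mouse was above the highest WT mouse. Hspa5 had a log2 fold change of 0.30 ± 0.0855 (SE, 95% interval 0.12 to 0.48), with adjusted p = 0.129 by edgeR. DESeq2 gave an adjusted p of 0.0499, just inside the threshold, and limma-voom gave 5.35e-05. Over all alternatives the adjusted p of Hspa5 lay between 5.35e-05 and 0.434 and the log2 fold change between 0.25 and 0.36. Without WT mouse 3, the lowest for this gene, the log2 fold change was 0.25 with an adjusted p of 0.297 by edgeR. Hsp90b1 (ENSMUSG00000020048.11, chr10:86690209-86705509) encodes GRP94, the HSP90 of the ER, which folds Toll-like receptors and integrins among others. It was at 371.1, 395.4 and 369.5 CPM in WT and at 434.0, 428.2 and 469.5 CPM in GFAP-IL6. The WT mice were close together and all below the GFAP-IL6 mice. Its log2 fold change was 0.23 ± 0.0818 (SE, 95% interval 0.05 to 0.40), with adjusted p = 0.32 by edgeR, 0.215 by DESeq2 and 0.000401 by limma-voom. On the opposite strand a pseudogene, 1810014B01Rik, overlaps the last exon of Hsp90b1, so both hold the same stretch of DNA there. The search for near-identical gene ends matched it to Hsp90b1. It had 182 counts in all libraries against 48209 for Hsp90b1.

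Calr and Canx encode calreticulin and calnexin, the soluble and the membrane-bound lectins that retain glycoproteins until they are folded. Calr (ENSMUSG00000003814.8, chr8:84841850-84846934) was at 151.2, 189.0 and 217.8 CPM in WT and at 208.1, 187.6 and 230.9 CPM in GFAP-IL6. The WT mice were spread widely and the groups overlapped. The log2 fold change was 0.17 (95% interval -0.09 to 0.43, adjusted p = 0.775 by edgeR), and with each mouse left out it ranged from 0.04 without WT mouse 1 to 0.30 without WT mouse 3, the lowest and the highest of the WT group, and was 0.09 without GFAP-IL6 mouse 3. Canx (ENSMUSG00000020368.13, chr11:50293961-50325673) was at 235.4, 252.6 and 328.0 CPM in WT and at 271.7, 251.0 and 270.5 CPM in GFAP-IL6. Here WT mouse 3 was above all other mice, and the log2 fold change was -0.04 (95% interval -0.28 to 0.20, adjusted p = 0.968 by edgeR), and without that mouse its sign turned, to 0.12. The part of the choroid plexus transcripts of WT mouse 3 in these levels was not tested.

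The protein disulfide isomerases form and reshuffle disulfide bonds in the ER. Pdia4 (ERp72; ENSMUSG00000025823.8, chr6:47796141-47813430), the least abundant member, was at 38.0, 35.8 and 43.7 CPM in WT and at 52.6, 42.7 and 53.6 CPM in GFAP-IL6. GFAP-IL6 mouse 2 was below WT mouse 3 and the other GFAP-IL6 mice were above all WT mice. Its log2 fold change of 0.35 ± 0.114 (SE, 95% interval 0.11 to 0.59) was the largest of the 10 in the summed libraries, with adjusted p = 0.238 by edgeR and 0.277 by DESeq2. Without WT mouse 3, on which the overlap rests, it was 0.43 with an adjusted p of 0.09 by edgeR, and with each mouse left out it ranged from 0.28 to 0.45. Pdia6 (P5; ENSMUSG00000020571.10, chr12:17266545-17284770) was at 184.7, 187.3 and 160.6 CPM in WT and at 197.9, 197.5 and 215.8 CPM in GFAP-IL6. The groups did not overlap, by a small margin, and the log2 fold change was 0.20 (95% interval 0.01 to 0.38, adjusted p = 0.528 by edgeR and 0.0276 by limma-voom). Without WT mouse 3, the lowest for Pdia6, it was 0.14 with an adjusted p of 0.696 by edgeR. Pdia3 (ERp57; ENSMUSG00000027248.11, chr2:121413775-121438687), the isomerase that works with calnexin and calreticulin, was at 97.7, 80.3 and 95.4 CPM in WT and at 98.1, 86.9 and 83.9 CPM in GFAP-IL6. The groups overlapped fully, and the log2 fold change was -0.03 (95% interval -0.24 to 0.18).

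Of the 3 transcription factors, none was called by edgeR or DESeq2. Xbp1 (ENSMUSG00000020484.16, chr11:5520659-5525893) was at 220.9, 192.0 and 207.3 CPM in WT and at 230.8, 244.4 and 248.7 CPM in GFAP-IL6. The 3 GFAP-IL6 mice lay above the 3 WT mice, and the log2 fold change was 0.22 ± 0.0833 (SE, 95% interval 0.04 to 0.40), with adjusted p = 0.367 by edgeR, 0.404 by DESeq2 and 0.00147 by limma-voom. Atf4 (ENSMUSG00000042406.7, chr15:80255184-80257541), which drives amino acid and redox genes after PERK or other kinases of eIF2 act, was at 104.3, 110.4 and 125.4 CPM in WT and at 93.2, 129.5 and 133.2 CPM in GFAP-IL6. GFAP-IL6 mouse 1 was the lowest of all mice and the other GFAP-IL6 mice were the highest, so the log2 fold change of 0.08 had a wide interval, from -0.18 to 0.33, and ranged from -0.02 to 0.21 with each mouse left out. Ddit3 (ENSMUSG00000025408.13, chr10:127290774-127296288), which encodes the pro-apoptotic factor CHOP, was at 48.3, 46.3 and 50.1 CPM in WT and at 48.8, 45.6 and 44.9 CPM in GFAP-IL6. Its mice were the most alike of the 10 genes, and the log2 fold change was -0.06 (95% interval -0.25 to 0.14, adjusted p = 0.932 by edgeR). Mars, on the opposite strand, overlaps the last exon of Ddit3 and had 3628 counts in all libraries. The strand setting of the counting is not given in the sources used here. Exact two-sided permutation tests of 3 against 3 mice gave p = 0.1 for the 4 genes whose groups did not overlap, the smallest p this design allows.

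Reads of 3'Pool-seq come from the ends of transcripts, and the study's processing did not divide them by gene length. The paper gives the sequencing of 3' ends alone as the reason, so the undivided scale is the one for these counts. The order of the 10 genes changes with the division, and both scales are given. Without division by length, the means over 6 mice ran from 44.4 CPM for Pdia4 to 411.3 CPM for Hsp90b1, with Hspa5 second at 311.9 CPM and Xbp1 at 224.0 CPM. Per kb of the deposited gene length, the mean over 6 mice was highest for Hsp90b1 at 145.6 CPM per kb, whose range of 130.8 to 166.2 over the mice overlapped with no other member. Xbp1 (93.8 CPM per kb), Calr (90.4), Pdia6 (87.6) and Hspa5 (83.1) followed with ranges that overlapped. The ranges of Atf4 (67.3) and Canx (62.6) overlapped with each other, with those of Calr, Pdia6 and Hspa5, and with that of Ddit3 (53.2). Pdia3 (32.6) and Pdia4 (17.9) came last and overlapped with no other member. 

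Each of the 4 library sets repeats the comparison with the same mice, so the sets measure the library step and not other animals. Hspa5 was higher in GFAP-IL6 in 4 of 4 sets, with log2 fold changes of 0.24 to 0.38, and Hsp90b1 in 4 of 4, with 0.20 to 0.28. Both were at an unadjusted p under 0.05 by edgeR in each set, where 6.77% to 7.59% of all genes were at that level. Calr, Pdia4, Pdia6, Xbp1 and Atf4 were also positive in 4 of 4 sets, with ranges of 0.14 to 0.26, 0.06 to 0.52, 0.14 to 0.30, 0.17 to 0.26 and 0.04 to 0.21. Canx was at -0.07 to 0.00 and Pdia3 at -0.08 to 0.07. Ddit3 was at -0.32 in 2 ng set A (unadjusted p = 0.0437 and adjusted p = 0.631 by edgeR) and between 0.00 and 0.02 in the other 3 sets.

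In 2 ng set A 6 members had an unadjusted p under 0.05 by edgeR, where 7.59% of all genes were at that level. Hspa5, Hsp90b1, Pdia4, Pdia6 and Xbp1 were higher and Ddit3 was lower. EdgeR called 1 of the 10 members in this set, Pdia4, where it called 1.03% of all genes. Its log2 fold change there was 0.52 (95% interval 0.26 to 0.78, adjusted p = 0.0396 by edgeR), from 50.4, 49.6 and 41.5 CPM in WT and 65.4, 66.6 and 72.9 CPM in GFAP-IL6. The groups stood well apart in this set, but the adjusted p was 0.145 with DESeq2, which called none of the members and 0.535% of all genes, and between 0.0513 and 0.416 when any single mouse was left out. In 2 ng set B the same mice gave 35.0, 31.8 and 46.8 CPM in WT and 37.1, 32.5 and 43.4 CPM in GFAP-IL6, a log2 fold change of 0.06. The difference between these 2 effects was 0.42 (95% interval 0.09 to 0.76, adjusted p = 0.999 by edgeR, a test chosen after seeing the data). That test called 0.00% of 12711 genes and none of the members. At an unadjusted p under 0.05 it had 2 members, Pdia4 and Ddit3, with 4.13% of all genes at that level, and no other tool was run on it.

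EdgeR called none of the 10 in the other sets, where it called 1.10% of all genes with 1 ng in set A, 1.08% with 2 ng in set B and 1.08% with 1 ng in set B. At an unadjusted p under 0.05 there were 4, 3 and 3 members, with 7.34%, 6.77% and 6.98% of all genes at that level. DESeq2 called 1, 0 and 0 members, where it called 0.795%, 0.595% and 0.828% of all genes. The member nearest to a call was Hspa5 in 1 ng set A, at 285.3, 248.6 and 238.5 CPM in WT and 331.9, 333.6 and 344.9 CPM in GFAP-IL6. There its log2 fold change was 0.38 (adjusted p = 0.0551 by edgeR), and the call was made without WT mouse 1.

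**Figure D2:**
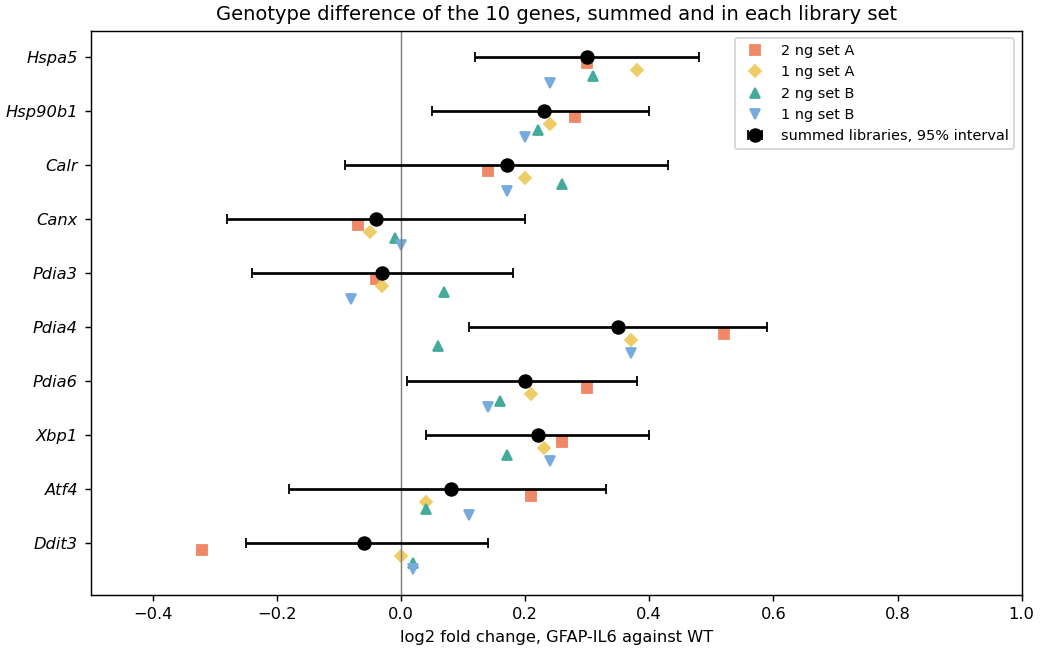
Log2 fold change (x axis) of GFAP-IL6 against WT for each gene, as black circles with 95% intervals for the summed libraries and as coloured symbols for the 4 library sets, which share the same mice. The intervals of Hspa5, Hsp90b1, Pdia4, Pdia6 and Xbp1 lie above 0, and Pdia4 spreads most between sets, from 0.06 to 0.52.

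Members were also compared between the cDNA amounts, the factor this experiment varied, and between the sets. The main fit of each comparison had genotype as a covariate and did not pair the libraries of a mouse. Calr was at 110.7 to 204.8 CPM in the 12 libraries made with 2 ng (median 164.1) and at 170.8 to 271.3 CPM in the 12 made with 1 ng (median 225.0). Calr fell by 0.53 on the log2 scale at 2 ng (95% interval -0.71 to -0.34, adjusted p = 0.000243 by edgeR), was lower at 2 ng in 6 of 6 mice, and was the 1 member called, where 12.8% of all genes were. With the mouse as a block, which sets the libraries of a mouse against each other, edgeR called 33.3% of all genes and 6 members. Calr, Hsp90b1 and Xbp1 were lower at 2 ng, with log2 fold changes of -0.53, -0.07 and -0.09, and Canx, Pdia4 and Atf4 were higher, with 0.12, 0.22 and 0.18. The p-values of this fit measure the spread between libraries of 1 RNA and not between animals.

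Between the sets, Pdia4 was the 1 member called by edgeR, where 7.47% of all genes were. It was at 35.3 to 72.9 CPM in the 12 libraries of set A (mean 51.4) and at 30.0 to 52.4 CPM in the 12 of set B (mean 38.7), and it was higher in set A in 5 of 6 mice. The log2 fold change of set A against set B was 0.41 (95% interval 0.19 to 0.62, adjusted p = 0.0133 by edgeR), and without WT mouse 2, GFAP-IL6 mouse 2 or GFAP-IL6 mouse 3 the adjusted p was 0.0559, 0.0531 or 0.0595. With the mouse as a block, which pairs the libraries of a mouse, 23.3% of all genes and 4 members were called. They were Pdia4 (0.43, adjusted p = 5.36e-08 by edgeR), Canx (0.07), Hspa5 (-0.08) and Calr (-0.14). The p-values of this fit again measure the spread between libraries of 1 RNA. Libraries of the same mouse differed most for Pdia4 and Calr, with an SD of 0.333 and 0.317 on the log2 scale, against 0.064 to 0.175 for the other 8 genes. This SD was taken over all 4 libraries of a mouse, so it includes the shifts with cDNA amount and set given above. Counting error alone gives an SD of 0.11 for Pdia4 at its median of 173.0 counts per library and of 0.0548 for Calr at 692.5. Member counts per library ranged from 64 to 5897.

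**Figure D3:**
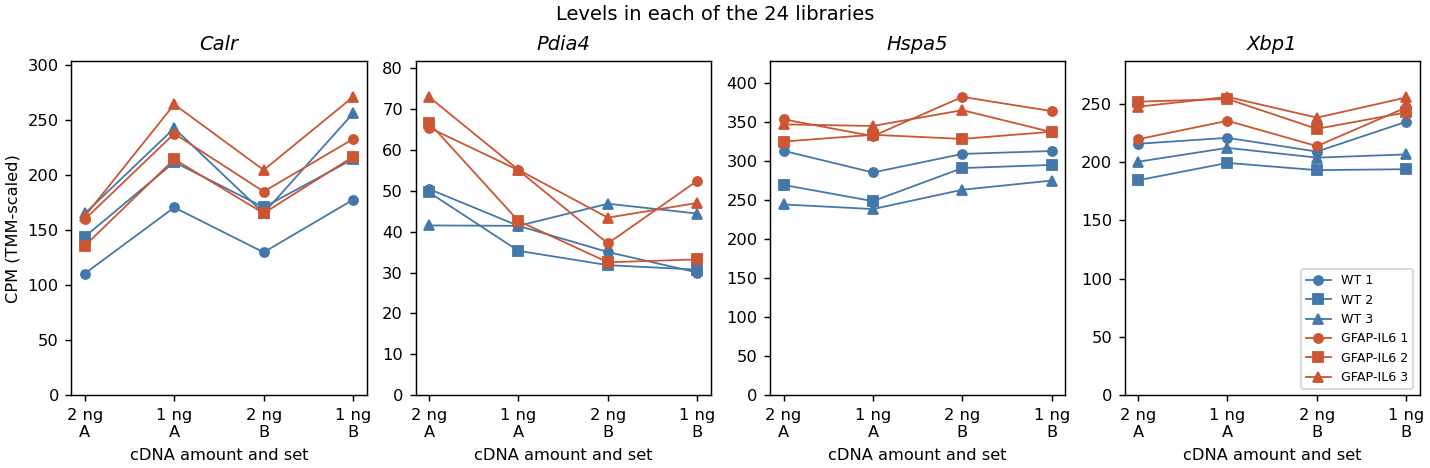
TMM-scaled CPM (y axis, from 0) of 4 members in each of the 24 libraries, ordered by cDNA amount and set on the x axis, with 1 line per mouse, WT in blue and GFAP-IL6 in red. Calr is lower at 2 ng than at 1 ng in every mouse and Pdia4 is higher in set A in 5 of 6 mice, while Hspa5 and Xbp1 vary less between libraries of a mouse.

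The other genes of the ER were taken as 7 lists of 105 genes, of which 104 were tested. EdgeR called 1, where it called 1.80% of all genes. This was Sdf2l1, which encodes a partner of BiP in a chaperone complex, at 35.6, 36.0 and 30.3 CPM in WT and 48.3, 51.4 and 48.4 CPM in GFAP-IL6. The groups were far apart. Sdf2l1 rose by a log2 fold change of 0.53 ± 0.0982 (SE, adjusted p = 0.00801 by edgeR and 0.000694 by DESeq2), and its adjusted p was 0.0172 without WT mouse 3 and 0.058 without GFAP-IL6 mouse 2. In set A alone its log2 fold change was 0.43, with an adjusted p of 0.0849. Across the 7 lists 11 genes had an unadjusted p under 0.05, 8 of them higher and 3 lower, where 8.75% of all genes were at that level, and the median log2 fold change was 0.03.

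The list of 17 other chaperones and cochaperones of the ER held 5 of those 8 genes and none of those 3. Limma-voom called these 5, where it called 3.73% of all genes, and they are named because their values were seen. Besides Sdf2l1 they were Dnajb11 (log2 fold change 0.32) and Dnajc1 (0.40), cochaperones of BiP, Manf (0.28), a secreted ER stress protein with neurotrophic action, and Serpinh1 (0.39), the collagen chaperone HSP47. EdgeR gave these 4 adjusted p-values of 0.101, 0.134, 0.196 and 0.271. The median of the chaperone list was 0.08. No gene was called by edgeR, DESeq2 or limma-voom among 11 other disulfide enzymes (median 0.00, 3 genes at an unadjusted p under 0.05 by edgeR), 6 genes of glycan quality control (median -0.06, 0 genes), 20 genes of ER-associated degradation (median 0.03, 1 gene) and 15 genes of the translocon (median 0.00, 0 genes). Over all genes 8.75% had an unadjusted p under 0.05 by edgeR.

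No sensor and no target downstream of PERK was called. Ern1 was at 1.88, 1.55 and 1.17 CPM in WT and 2.41, 2.36 and 1.97 CPM in GFAP-IL6, with 9 to 76 counts per mouse and a log2 fold change of 0.48 (95% interval -0.19 to 1.16, adjusted p = 0.746 by edgeR). The groups did not overlap, but so few counts left a wide interval. Eif2ak3 was at 4.53, 4.82 and 4.57 CPM in WT and 5.67, 4.77 and 6.41 CPM in GFAP-IL6, a log2 fold change of 0.28 (95% interval -0.15 to 0.70) that was 0.15 without GFAP-IL6 mouse 3. Atf6 was at 36.3, 36.9 and 33.4 CPM in WT and 37.3, 34.2 and 32.7 CPM in GFAP-IL6, a log2 fold change of -0.05 (95% interval -0.26 to 0.17). Of 10 sensors and related factors and of 25 targets of ATF4 and CHOP none was called by edgeR, DESeq2 or limma-voom. In each list 1 gene had an unadjusted p under 0.05 by edgeR, where 8.75% of all genes did. The medians were 0.02 and 0.05.

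Outside the ER, 14 cytosolic heat shock genes had a median of 0.05, and edgeR called 1 of them, where it called 1.80% of all genes. Hspb1, the small heat shock protein HSP27, was at 12.6, 16.7 and 9.52 CPM in WT and 17.5, 25 and 29.2 CPM in GFAP-IL6. All GFAP-IL6 mice were above all WT mice, by less than 1 CPM between the nearest. It rose by a log2 fold change of 0.87 (adjusted p = 0.0242 by edgeR), with adjusted p-values of 0.0931, 0.0523, 0.0995 and 0.201 without WT mouse 1, WT mouse 3, GFAP-IL6 mouse 2 and GFAP-IL6 mouse 3. In the 2 ng libraries alone the log2 fold change of Hspb1 was 0.56 with an adjusted p of 0.396, and the adjusted p was 0.0702 after down-sampling and 0.0895 in set B alone.

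**Figure D4:**
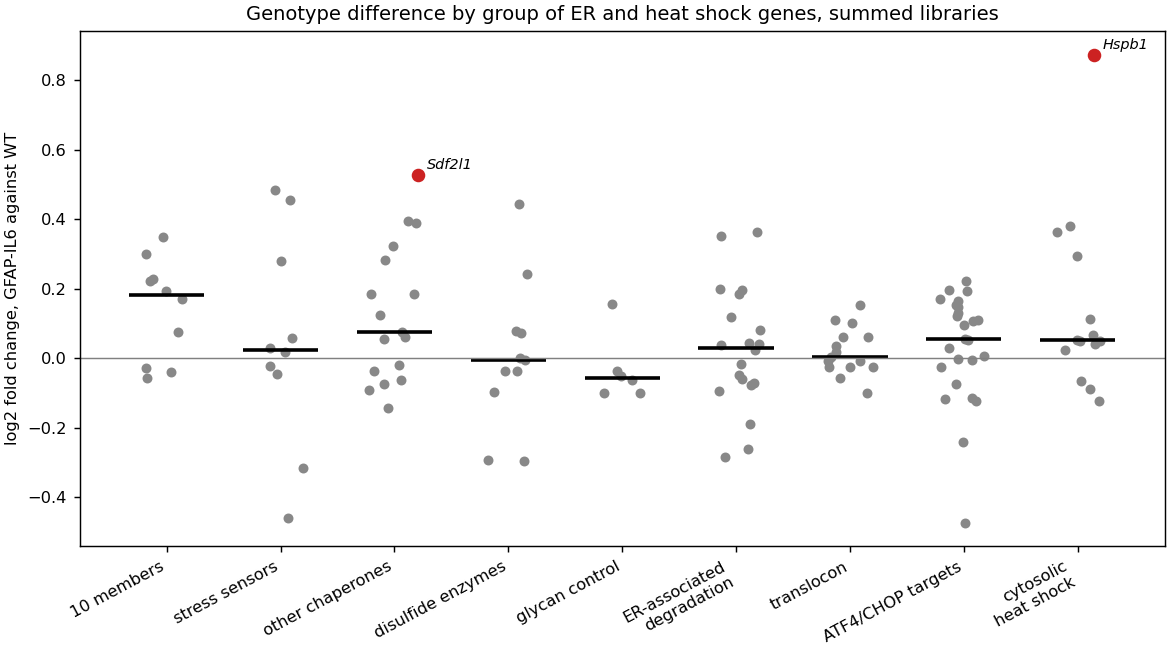
Log2 fold change (y axis) of GFAP-IL6 against WT in the summed libraries for each tested gene of the 10 members, of 7 lists of other ER genes and of cytosolic heat shock genes, with a black line at the median of each list. Red points are called by edgeR at an adjusted p under 0.05, Sdf2l1 and Hspb1, and all other genes are grey.

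The 5 members with an ERSE in the window had a median log2 fold change of 0.20, with 3 at an unadjusted p under 0.05, and the 5 without had a median of 0.08, with 2, where 8.75% of all genes were at that level. The other 13 tested genes with an ERSE had a median of 0.04. None of them was called by edgeR, DESeq2 or limma-voom, and none had an unadjusted p under 0.05 by edgeR.

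Markers of some cell types moved with genotype in the same mice. The summed level of 6 microglial markers was 212.7 to 235.6 CPM in WT and 320.0 to 417.9 CPM in GFAP-IL6. EdgeR called 5 of the 6, where it called 1.80% of all genes, and P2ry12, not called, had a log2 fold change of -0.02. The 5 astrocyte markers summed to 589.7 to 631.3 CPM and 708.5 to 875.3 CPM, with 1 called, Gfap. Gfap alone was at 15.9 to 23.5 CPM in WT and 80.5 to 146.4 CPM in GFAP-IL6. The log2 fold changes of the others were 0.52 for Aqp4, 0.27 for Gja1, 0.11 for Slc1a3 and -0.1 for Aldh1l1. The 5 endothelial markers summed to 26.4 to 31.4 CPM and 39.2 to 52.1 CPM, with 1 called, Flt1. Most of this was Flt1, at 16.6 to 21.5 CPM in WT and 27.3 to 34.4 CPM in GFAP-IL6. The others reached at most 9.18 CPM, with log2 fold changes of 0.83 for Cldn5, 0.55 for Pecam1, 0.73 for Cdh5 and 0.83 for Kdr. The 5 neuronal markers summed to 5399.3 to 6085.7 CPM and 5034.3 to 5692.4 CPM, with none called by edgeR. The 5 oligodendrocyte markers summed to 5559.6 to 8541.1 CPM in WT and 5486.2 to 8201.9 CPM in GFAP-IL6, with none called by edgeR. The groups overlapped in both of these sums. Of 9 markers of B and plasma cells, which are rich in ER, 4 were under 1 CPM in every mouse. The list summed to 56.7 to 64.7 CPM in WT and 60.7 to 75.1 CPM in GFAP-IL6, nearly all of it Ighm at 53.3 to 71.1 CPM, while the other 8 markers reached at most 2.31 CPM. The part of these cell types in the levels of the 10 members was not tested.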

How the data were processed

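Per the study's methods, the authors made 3'Pool-seq libraries from total RNA, and for the reads used STAR 2.4 to map to mm10 and featureCounts to count on GENCODE genes. The submitters' processing notes name hg19, which cannot be the build of mouse Ensembl genes. The deposited values are raw counts, which the authors did not normalize. Groups of the 24 libraries came from the labels, and mice were the replicates. The 10 members and the gene lists were chosen with earlier results of these data known.

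Counts were summed per mouse and tested with edgeR 4.0.16 (quasi-likelihood, TMM, filterByExpr, Benjamini-Hochberg over all genes) in R 4.3.3. The genes to be named were the members, Ern1, Eif2ak3, Atf6, list genes called in the summed comparison, Il6 and Gfap. Outside this rule, Dnajb11, Dnajc1, Manf and Serpinh1 were named after their values were seen. Alternatives were DESeq2 1.42.0, its size factors in edgeR, other filters, each mouse left out, replicate blocks, subsets of libraries, down-sampling to 7852743 counts, and limma 3.58.1 (voom). Libraries of a mouse differed by more than sampling noise (chi-square per degree of freedom 2.35 to 15.5 over 36 pairs). They were paired by the animal, with correlations of their deviations of 0.30 to 0.446 between cDNA amounts and 0.11 to 0.295 between sets. Tests were run on simulated data with dispersions taken from these counts. The planted changes were larger than those of the members, so the check does not cover changes of the members' size. Genes with a last 300 nt at least 97% identical to another gene were sought with minimap2 2.31-r1302. Positions are those of the GENCODE annotation of GRCm38.

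PCR copies were not told apart by molecular identifiers, so counting errors cover counting only. Nothing in the labels says more of the animals' origin, and p-values between mice measure the spread of 3 mice per group. Protein sequences were not used here.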

Additional observations from a re-analysis of the deposited data

How the results depend on the processing

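Of 170 values of the 10 members' log2 fold changes in the summed comparison, 17 alternatives for each gene, 155 kept their direction and their side of the threshold, 6 passed it and 9 turned their sign. The count of members called, 0 with edgeR, became 1 with DESeq2 (Hspa5), 1 in the sum of set A alone (Pdia4, 0.45, adjusted p = 0.0477) and 4 with limma-voom, and was 0 to 0 with each mouse left out. In 2 ng set A the count of 1 became 0 with DESeq2, 0 with the replicate block of same-numbered mice and 0 to 0 with each mouse left out. In 1 ng set A the count of 0 became 1 with DESeq2, 1 without a filter and 1 with the replicate block, and 0 to 1 with each mouse left out. With the mouse as a replicate block the count became 6 for 2 ng against 1 ng and 4 for set A against set B, and the latter was 0 to 1 with each mouse left out. The signs that turned belonged to genes near 0. With each mouse left out Canx ranged from -0.14 to 0.12, Pdia3 from -0.12 to 0.03 and Atf4 from -0.02 to 0.21. Canx was at 0.12 without WT replicate 3 and 0.01 with limma-voom, Pdia3 at 0.03, 0.01 and 0.02 without WT replicate 1, WT replicate 3 and GFAP-IL6 replicate 3 and 0.02 in the 2 ng libraries, Atf4 at -0.02 without GFAP-IL6 replicate 3, Ddit3 at 0.01 in the 1 ng libraries and 0.02 in set B, and Atf6 at 0.0 after down-sampling and 0.01 in the 2 ng libraries. Their causes were not tested.

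Same-numbered mice of the genotypes share only a number, with correlations of -0.0494, -0.0372 and -0.0608 between their deviations, and with this replicate block edgeR called 215 of all genes in place of 263. Over all genes the calls of the summed comparison were 462 without a filter, 453 with limma-voom, 177 without GFAP-IL6 replicate 2 and 146 without GFAP-IL6 replicate 3. The ranks of 8 of the 10 members by level changed when CPM was divided by gene length, which the study's processing left out for 3' reads. With 3 mice per group, the 95% intervals of the members' log2 fold changes were 0.35 to 0.52 wide.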
